A study of Mus musculus with 11 samples.

Results

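The genes of vascular endothelial growth factor (VEGF) and angiopoietin signalling were examined in the hearts of mice after myocardial infarction (MI). They comprise 10 of the 55513 genes in the count table, listed by name for their place in the pathway, with earlier results of these data known: the ligand genes Vegfa, Vegfb, Vegfc, Angpt1 and Angpt2, and the receptor genes Flt1, Kdr, Flt4, Nrp1 and Tek. All 11 mice were female C57BL/6J animals of 8 weeks. In 8 of them the left anterior descending (LAD) artery was ligated permanently, and the infarct was taken with its border zone on day 3. Of these, 4 mice were given the ADAM10 inhibitor GI254023X (ADAM10 is a membrane-bound metalloprotease) at 100 mg/kg from a subcutaneous osmotic minipump (A10i), and 4 were given the solvent DMSO alone (DMSO). The 3 sham-operated mice (Sham) also carried DMSO and gave healthy heart tissue. The labels call the Sham samples healthy tissue and do not give the part of the heart they came from. Each sample is a separate mouse.

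VEGF-A, made by cardiomyocytes and other cells that lack oxygen, binds VEGFR2 (gene Kdr), the receptor that drives growth and migration of blood endothelial cells, and VEGFR1 (Flt1), which binds it tightly and limits how much reaches VEGFR2. Of the receptors VEGFR1, VEGFR2 and VEGFR3 (Flt4), VEGF-B binds VEGFR1 alone, and VEGF-C acts through VEGFR3 on lymphatic endothelium. Neuropilin-1 (Nrp1) is the co-receptor that holds VEGF-A to VEGFR2 and also binds class 3 semaphorins. Angiopoietin-1 (Angpt1), from mural and other stromal cells, activates the endothelial receptor TIE2 (Tek) and keeps vessels quiescent, whereas angiopoietin-2 (Angpt2), released by activated endothelium, competes for the same receptor.

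In hearts of DMSO mice, 4 of the 10 genes were lower than in Sham by the test used here, namely Nrp1, Vegfb, Flt1 and Kdr. Their upstream sequences are shown because these genes fell together. RefSeq promoter windows (GRCm38.p6, the same assembly as mm10) matched 8 of the 10 genes, Angpt1 and Angpt2 not being among them. Each line gives the bases before the RefSeq start, 5′ to 3′ on the gene's strand and without any base that lies in an exon of the count table. Capitals mark GGGCGG (the GC box bound by SP1-type factors), CCGGAA (the core of ETS sites, which endothelial genes often use) and GCGTG (a core of hypoxia response elements) on either strand, and adjoining copies run together.
Nrp1, chr8:128358823-128359072, plus strand: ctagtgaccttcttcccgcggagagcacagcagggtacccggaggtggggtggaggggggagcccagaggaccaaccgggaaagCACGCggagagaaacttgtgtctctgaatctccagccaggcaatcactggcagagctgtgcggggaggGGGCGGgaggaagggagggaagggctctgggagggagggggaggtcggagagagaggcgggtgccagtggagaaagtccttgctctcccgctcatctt
Vegfb, chr19:6987652-6987901, minus strand: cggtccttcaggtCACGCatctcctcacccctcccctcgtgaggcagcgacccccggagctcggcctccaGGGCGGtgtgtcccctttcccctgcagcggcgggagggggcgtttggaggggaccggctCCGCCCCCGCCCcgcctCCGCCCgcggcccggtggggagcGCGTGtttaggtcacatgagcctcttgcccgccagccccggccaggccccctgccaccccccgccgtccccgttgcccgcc
Flt1, chr5:147726012-147726261, minus strand: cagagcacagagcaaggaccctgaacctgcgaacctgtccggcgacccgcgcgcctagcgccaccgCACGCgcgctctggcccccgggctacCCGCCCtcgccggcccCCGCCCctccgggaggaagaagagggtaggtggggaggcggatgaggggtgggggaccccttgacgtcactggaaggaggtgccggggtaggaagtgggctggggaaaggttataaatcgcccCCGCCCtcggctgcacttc
Kdr, chr5:75978459-75978705, minus strand: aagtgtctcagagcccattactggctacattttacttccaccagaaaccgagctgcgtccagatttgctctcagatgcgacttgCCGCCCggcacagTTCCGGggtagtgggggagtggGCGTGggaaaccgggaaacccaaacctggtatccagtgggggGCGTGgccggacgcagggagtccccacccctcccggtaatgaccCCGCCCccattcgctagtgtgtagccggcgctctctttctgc
The Nrp1 window lies inside the span of the gene in the table, between exons of its longest model, and the Flt4 window lay in exons of the table and is not shown.

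GGGCGG occurred 4 times in the Vegfb window, 3 times in that of Flt1, 2 times in that of Kdr and 1 time in that of Nrp1, and 32.7% of the 32851 mouse windows of 250 bases held it. GCGTG occurred 2 times each in Vegfb and Kdr and 1 time each in Flt1 and Nrp1, against 28.2% of all windows with at least 1 copy. CCGGAA was found in Kdr, 1 time, and not in the other 3 windows, and 12% of all windows held it. ACGTG, the other core of hypoxia response elements, was in none of the 4, against 16.6% of all windows. The motifs were not limited to these 4 genes. Of the genes that were not called, Vegfa, in the window at its 5′ end, and Vegfc held GGGCGG 2 times each, as many as Kdr, and neither held any of the other 3 motifs. The Tek window held none of the 4. These matches describe the letters and not use of a site.

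Each Sham library held 25538052 to 29511782 counts in total, each DMSO library 22651290 to 29004098 and each A10i library 21702659 to 25695258. All 10 genes passed the filter on low counts in every comparison. Values by mouse are given as normalised read counts, that is counts scaled by the trimmed mean of M-values (TMM) over all 11 libraries, and groups as mean ± SD. Differences are log2 fold changes with their standard error (SE) from edgeR's quasi-likelihood test, run over all genes of each comparison, and a gene is said to rise or fall where the adjusted p was under 0.01. Over all genes, 2211 rose and 1664 fell between DMSO and Sham, and 2297 rose and 1543 fell between A10i and Sham. With library size alone as the scale these splits were 3349 and 727, and 3442 and 587, and the median of all genes moved to 0.21 and 0.18 on the log2 scale, so each TMM difference from Sham is relative to a median gene near 0.

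Per kilobase of exon, the ligand Vegfb was the most abundant of the 10 transcripts in Sham at 175 ± 0.797 RPKM (reads per kilobase of exon and per 1000000 counted reads, n = 3), followed by Vegfa at 72.0 ± 8.59. The 3 receptors Kdr, Flt1 and Tek came next at 16.4 ± 0.258, 16.1 ± 0.571 and 16.1 ± 0.295 RPKM, and neighbours among them overlapped between mice. Nrp1 stood below them at 13.5 ± 0.826 RPKM and Angpt1 at 10.1 ± 0.393 RPKM, each without overlap with its neighbours. Flt4 at 2.99 ± 0.175 and Vegfc at 2.70 ± 0.375 RPKM overlapped each other, and Angpt2 was the lowest at 0.682 ± 0.0706 RPKM.

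In DMSO mice the order was less sharp. Vegfb, at 113 ± 21.5 RPKM (n = 4), now overlapped Vegfa at 81.8 ± 12.3, and Angpt1, Kdr, Flt1 and Tek lay within 1 overlapping run between 13.0 ± 5.88 and 12.1 ± 1.85 RPKM. Angpt2 at 2.51 ± 1.24 RPKM overlapped both Flt4 at 3.95 ± 0.416 and Vegfc at 2.35 ± 0.258. In A10i mice Kdr stood alone in the third place at 19.0 ± 3.15 RPKM (n = 4), above Tek at 13.9 ± 1.16 and Flt1 at 13.5 ± 1.69, and Angpt2 was last at 1.75 ± 0.561 RPKM, overlapping Vegfc at 2.69 ± 0.532.

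**Figure D1:**
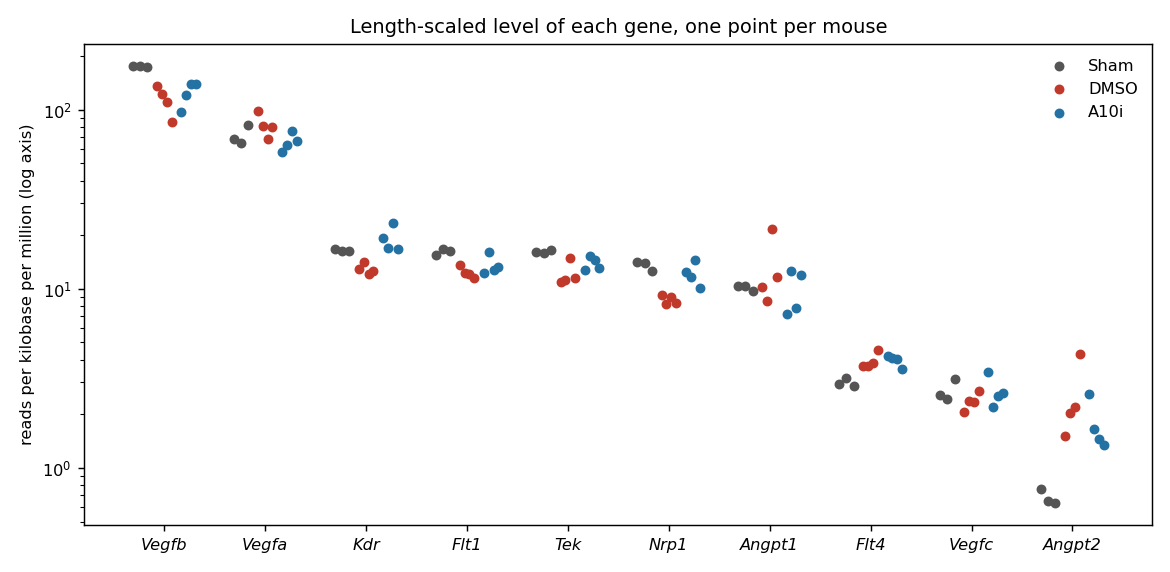
RPKM on a log axis for the 10 genes, ordered by their Sham mean, with 1 point per mouse and colours for Sham, DMSO and A10i. Vegfb and Vegfa sit highest, Kdr, Flt1, Tek, Nrp1 and Angpt1 share a middle band, and Angpt2 sits lowest in Sham and higher in every infarcted heart.

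The comparison of DMSO with Sham asks what infarction does to these transcripts. Angpt2, the antagonistic TIE2 ligand of activated endothelium, was 3.67-fold higher in DMSO mice, and the receptors Nrp1, Flt1 and Kdr and the ligand Vegfb were 1.56-fold, 1.31-fold, 1.28-fold and 1.55-fold lower. In all, 1 of the 10 genes rose and 4 fell, where 12.9% of all 17119 genes tested rose and 9.72% fell (22.6% called). The groups did not overlap for 7 of the 10 genes, against 48.7% of all genes tested. The median log2 fold change of the 10 genes was -0.28, that of the 5 ligands 0.18 and that of the 5 receptors -0.39, beside 0.0024 over all genes tested.

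Angpt2 (chr8:18690263-18741562, minus strand) had normalised read counts of 72.0, 61.2 and 59.8 in Sham replicates 1 to 3 and of 141, 191, 207 and 407 in DMSO replicates 1 to 4. Every DMSO heart lay above every Sham heart, and replicate 4 was the highest of the 11 mice. The means were 64.3 ± 6.66 (n = 3) and 236 ± 116.8 (n = 4), and the rise passed the test (log2 fold change 1.88, SE 0.36, adjusted p = 0.00387). Without any filter on low counts the adjusted p was 0.0194, above the threshold of 0.01.

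Angpt1 (chr15:42424723-42676977, minus strand), the agonist of the same receptor, had 1383, 1375 and 1288 normalised counts in Sham and 1352, 1132, 2872 and 1550.0 in DMSO hearts. The groups overlapped, and DMSO replicate 3 stood far above the other 3. The difference did not pass the test (log2 fold change 0.35, SE 0.28, adjusted p = 0.337), and without that mouse it was -0.0058 on the log2 scale. Of the Angpt1 exon length, 14.2% is shared with the gene Gm17473 on the opposite strand, and the strand setting of the counting is not given in the sources used here.

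Vegfb (chr19:6982473-6987651, minus strand), the VEGFR1 ligand that cardiac muscle makes in quantity, had 7187, 7200.1 and 7138 normalised counts in the 3 Sham hearts and 5553, 5043, 4499 and 3493 in the 4 DMSO hearts. The coefficient of variation was 0.456% in Sham and 19.0% in DMSO mice, and all DMSO values were below all Sham values. Vegfb fell (log2 fold change -0.63, SE 0.14, adjusted p = 0.00602).

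Vegfa (chr17:46016993-46032369, minus strand), the hypoxia-inducible ligand of VEGFR1 and VEGFR2, had 7549, 7155 and 8945 normalised counts in Sham and 10766, 8824, 7495 and 8759 in DMSO hearts. The ranges overlapped, and DMSO replicate 1 was the highest mouse. Its difference was smaller than the spread between mice could separate (log2 fold change 0.18, SE 0.13, adjusted p = 0.306). For Vegfc (chr8:54077606-54187096, plus strand), the lymphatic growth factor, Sham hearts ranged from 152 to 196 and DMSO hearts from 127.2 to 167 normalised counts (log2 fold change -0.20, SE 0.15, adjusted p = 0.291).

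Among the receptors, Nrp1 (chr8:128358604-128503363, plus strand) had 3529, 3465 and 3144 normalised counts in Sham and 2293, 2060.2, 2259 and 2084 in DMSO hearts. The highest DMSO heart was well below the lowest Sham heart, and Nrp1 fell (log2 fold change -0.64, SE 0.081, adjusted p = 0.000456). Its exons contain the microRNA gene Mir1903 on the same strand, which takes 0.818% of their length.

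Kdr (chr5:75932827-75978458, minus strand), the main signalling receptor for VEGF-A, had 3855, 3744 and 3761 normalised counts in Sham and 2988, 3243, 2785 and 2887 in DMSO hearts, with no overlap, and fell (log2 fold change -0.35, SE 0.079, adjusted p = 0.00679). Flt1 (chr5:147561604-147726011, minus strand), the high-affinity VEGFR1 that also exists as a secreted trap, had 5346, 5731 and 5609 in Sham and 4683, 4194, 4159 and 3965 in DMSO hearts. Flt1 fell as well (log2 fold change -0.39, SE 0.085, adjusted p = 0.00582), again without overlap between the groups. The counts are per gene, so secreted and membrane forms of VEGFR1 are summed.

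Tek (chr4:94739289-94874976, plus strand), the angiopoietin receptor, had 1939.6, 1899 and 1969.8 normalised counts in Sham and 1304, 1353, 1788 and 1388 in DMSO hearts. All DMSO hearts were lower, with replicate 3 the closest to Sham, and the difference missed the threshold (log2 fold change -0.41, SE 0.11, adjusted p = 0.0155), while DESeq2 and a joint fit of all 11 libraries called Tek lower, at adjusted p of 0.0053 and 0.00857. Flt4 (chr11:49609263-49652739, plus strand), the VEGF-C receptor, was the 1 receptor with higher values in DMSO, with 614, 670.3 and 601 in Sham and 777, 781, 804 and 961 in DMSO hearts. These groups did not overlap either, and the adjusted p lay just above the threshold (log2 fold change 0.40, SE 0.10, adjusted p = 0.0112). DESeq2 and the joint fit called Flt4 higher, at adjusted p of 0.00408 and 0.00468.

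Calls against Sham changed with single libraries. With any one of the Sham replicates 1, 2 and 3 left out, 1 of the 10 genes passed in place of 5, namely Nrp1, while the log2 fold changes of the 5 called genes kept their sign. Leaving out DMSO replicate 2 ended the calls of Vegfb and Flt1 (3 genes called), and leaving out DMSO replicate 3 ended those of Vegfb, Flt1 and Kdr while Tek passed (3 genes called, adjusted p of Tek 0.000913). With library size alone, 3 genes were called, Angpt2 and Flt4 higher and Nrp1 lower. DESeq2 called 7, the 5 genes with Flt4 and Tek, and the joint fit called 6, gaining Flt4 and Tek and losing Kdr (adjusted p = 0.0244). These 2 methods also called more of all genes, 5092 and 4451 in place of 3875.

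**Figure D2:**
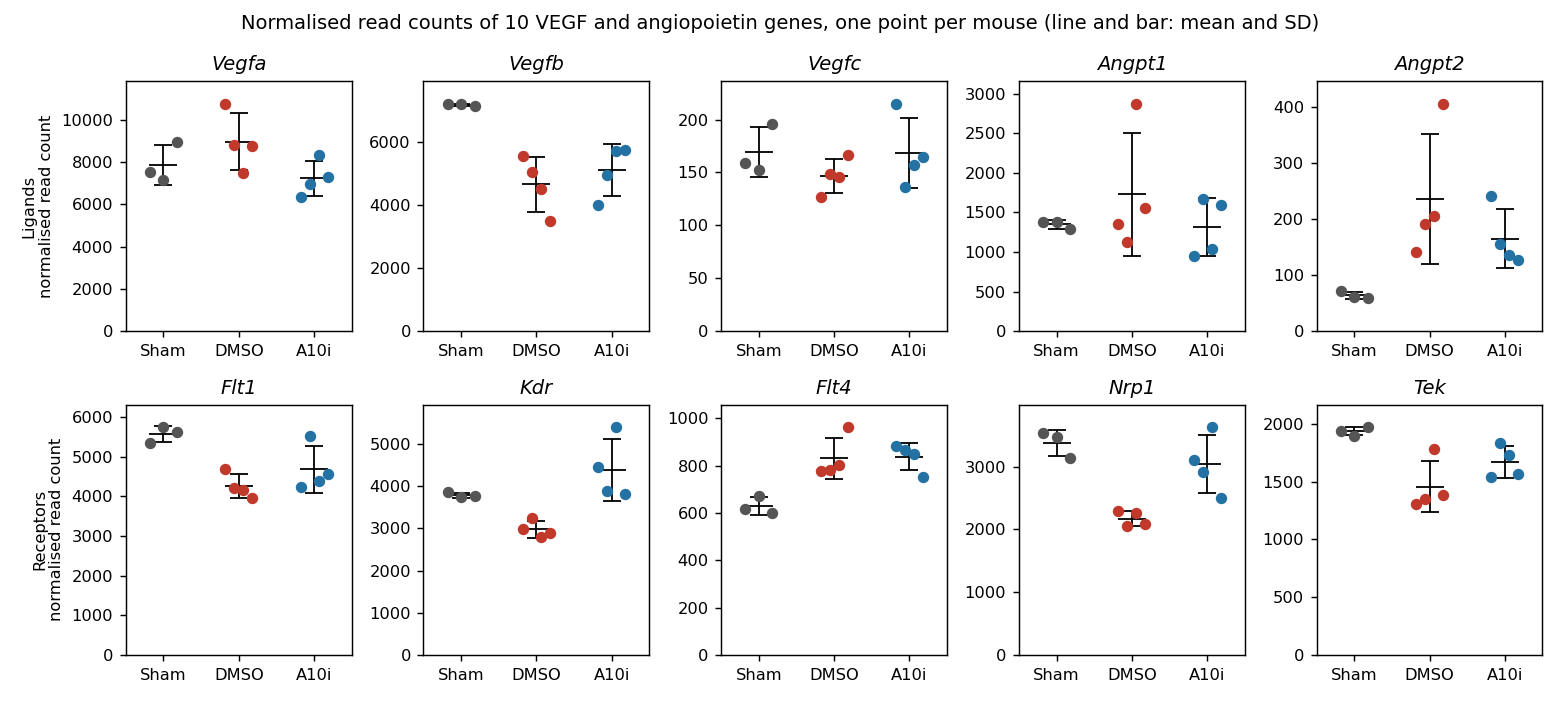
Normalised read count (y axis, from 0) of each of the 10 genes in Sham, DMSO and A10i mice, ligands above and receptors below, with 1 point per mouse and the mean with its SD. Kdr and Nrp1 points of DMSO mice sit below all Sham and all A10i points, and Angpt2 points of every infarcted heart sit above those of Sham.

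The same question was asked of A10i mice, compared with the same 3 Sham libraries, so that both comparisons share their controls. Angpt2 was 2.59-fold and Flt4 1.34-fold higher, and Vegfb 1.41-fold lower. Of the 10 genes 2 rose and 1 fell, where 13.5% of 17004 genes tested rose and 9.07% fell (22.6% called), and the groups did not overlap for 4 of the 10, against 48.2% of all genes tested. The median log2 fold change was -0.076 over the 10 genes, -0.033 over the ligands and -0.15 over the receptors, beside -0.0054 over all genes tested.

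Angpt2 had 242, 155, 136 and 126 normalised counts in A10i replicates 1 to 4, all above the Sham hearts (log2 fold change 1.37, SE 0.25, adjusted p = 0.00235). Flt4 had 881, 866, 849.8 and 752 normalised counts and also lay above Sham in every mouse (log2 fold change 0.42, SE 0.079, adjusted p = 0.00292). Vegfb had 3997, 4941, 5709 and 5733 normalised counts, below Sham in every mouse (log2 fold change -0.49, SE 0.12, adjusted p = 0.00838). Among these 3 genes, then, a TIE2 ligand and the VEGF-C receptor rose and a VEGFR1 ligand fell. Tek, with 1538, 1834, 1735 and 1568 normalised counts, was below Sham in all 4 mice without passing the threshold (log2 fold change -0.21, SE 0.074, adjusted p = 0.0443).

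The receptors Kdr, Nrp1 and Flt1 overlapped Sham in A10i mice. Kdr had 4449, 3884, 5391 and 3821 normalised counts and Nrp1 3102, 2921, 3625 and 2508, with log2 fold changes against Sham of 0.22 (SE 0.11, adjusted p = 0.162) and -0.15 (SE 0.11, adjusted p = 0.314). Flt1 had 4224, 5525, 4392 and 4558 normalised counts, with replicate 2 inside the Sham range (log2 fold change -0.25, SE 0.096, adjusted p = 0.0641), and without that mouse Flt1 passed at an adjusted p of 0.0064. Vegfa, Vegfc and Angpt1 had log2 fold changes of -0.12, -0.0028 and -0.033 with adjusted p of 0.42, 0.991 and 0.907. With library size alone the sign of these 3 and of Nrp1 turned, to 0.065, 0.19, 0.15 and 0.037.

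No gene of the 10 was called without Sham replicate 1 or Sham replicate 3, and 1 was called without Sham replicate 2, namely Flt4. A joint fit of all 11 libraries called 1, again Flt4, and 2669 of all genes in place of 3840. Vegfb lost its call without A10i replicate 2 or replicate 4, with adjusted p of 0.0183 and 0.0105, and with library size alone, at 0.0258.

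The comparison of A10i with DMSO asks what ADAM10 inhibition changes in the infarcted heart. Kdr was 1.48-fold and Nrp1 1.40-fold higher in A10i mice, each without overlap between the groups, and neither passed the threshold after adjustment over all genes. At an adjusted p under 0.01, 0 of the 10 genes and 0% of the 16793 genes tested were called by edgeR's quasi-likelihood test. At an unadjusted p under 0.05 there were 3 of the 10, Kdr and Nrp1 higher and Vegfa lower, beside 14% of all genes. DESeq2's Wald test called 2 of the 10, Kdr and Nrp1, and 231 of all genes, and limma-voom called 0.

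Kdr ranged from 2785 to 3243 normalised counts in DMSO hearts (2976 ± 196, n = 4) and from 3821 to 5391 in A10i hearts (4386 ± 727, n = 4), where replicate 3 was the highest of all mice. The log2 fold change was 0.56 with an SE of 0.12 (unadjusted p = 0.00073, adjusted p = 0.0942), and DESeq2 gave an adjusted p of 0.00204. Leaving out each mouse in turn kept it between 0.45 and 0.62, with edgeR adjusted p of 0.0838 to 0.225. Thus all 4 A10i hearts had more Kdr transcript than any DMSO heart, and the mean of A10i hearts was above that of Sham.

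Nrp1 ranged from 2060.2 to 2293 in DMSO hearts (2174 ± 118.96) and from 2508 to 3625 in A10i hearts (3039 ± 463), again with A10i replicate 3 the highest. Its log2 fold change was 0.49 with an SE of 0.11 (unadjusted p = 0.00133, adjusted p = 0.11), and the DESeq2 adjusted p was 0.00888. With each mouse left out in turn it lay between 0.39 and 0.57, with edgeR adjusted p of 0.127 to 0.248. The groups did not overlap for these 2 of the 10 genes, against 8.13% of all genes tested.

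The other 3 receptors were closer. Tek, Flt1 and Flt4 had log2 fold changes of 0.20 (SE 0.11), 0.14 (SE 0.11) and 0.014 (SE 0.092), with adjusted p of 0.481, 0.597 and 0.966, so that all 5 receptors were higher on average with TMM scaling. Flt4 was at -0.0052 with library size alone and was also below 0 with any one of 4 of the 8 mice left out, and with scaling to endothelial markers 3 of the 5 receptors were higher, Flt1 being at -0.021 and Flt4 at -0.14. The median over the 5 receptors was 0.20 on the log2 scale, beside 0.0033 over all genes tested.

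Among the ligands, Vegfa had 6363, 6982, 8334 and 7312 normalised counts in A10i hearts, overlapping DMSO in part, with a log2 fold change of -0.30 (SE 0.13, unadjusted p = 0.0427, adjusted p = 0.337). Angpt2 and Angpt1 had differences of -0.51 (SE 0.33) and -0.39 (SE 0.30) with the widest errors of the 10, and Vegfb and Vegfc of 0.14 (SE 0.16) and 0.20 (SE 0.16). The adjusted p of these 4 lay between 0.528 and 0.758. Adam10, the gene of the inhibited protease, was at 1453 to 2382 normalised counts in DMSO and 1727 to 2326 in A10i hearts (log2 fold change 0.087, SE 0.16, adjusted p = 0.851), and an inhibitor of the enzyme need not change it.

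In bulk tissue, fewer cells of a type and less RNA per cell cannot be told apart. The receptors are largely endothelial, so each comparison was repeated with libraries scaled to the mean of 18 endothelial markers, none of them among the 10 genes. On TMM-scaled data the mean log2 CPM (counts per 1000000) of these markers averaged 5.79 ± 0.047 over Sham, 5.71 ± 0.078 over DMSO and 5.87 ± 0.040 over A10i mice, and their summed CPM ranged from 1416 to 1475, from 1312 to 1563 and from 1501 to 1614. The panel did not move as 1 block between DMSO and Sham, since the tight-junction gene Cldn5 rose (0.90) while Myct1 (-0.91), Ushbp1 (-0.79) and 2 more of the 18 fell. The endothelial adhesion genes Pecam1 and Cdh5 and the transcription factor gene Erg differed by 0.040, -0.22 and -0.27 on the log2 scale, none past the threshold.

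Relative to the endothelial markers, DMSO hearts still had more Angpt2 than Sham (log2 fold change 1.94, SE 0.32, adjusted p = 0.0014) and less Nrp1 (log2 fold change -0.55, SE 0.12, adjusted p = 0.0033), and Flt4 now rose (log2 fold change 0.48, SE 0.11, adjusted p = 0.00463). Flt1, Kdr and Vegfb no longer passed, at -0.30 (adjusted p = 0.0856), -0.26 (adjusted p = 0.0851) and -0.53 (adjusted p = 0.03), and Tek was at -0.33 (adjusted p = 0.0497). In this scaling 2 of the 10 genes rose and 1 fell, where 15.8% of all genes rose and 5.53% fell (21.3% called, 2702 and 946 genes), with a median of 0.090 over all genes. Between 1 and 4 of the 10 were called when a library was left out, with 1 called, in place of 3, without any one of Sham replicates 1, 2 and 3.

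In A10i mice the same scaling left Angpt2 higher than in Sham (log2 fold change 1.29, SE 0.24, adjusted p = 0.002) and Vegfb lower (log2 fold change -0.57, SE 0.12, adjusted p = 0.00454), and Flt4 missed the threshold at 0.34 (adjusted p = 0.014), where 11.3% of all genes rose and 11.9% fell (23.3% called, 1926 and 2030 genes). Without Sham replicate 2 or 3, 0 of the 10 were called, without Sham replicate 1, 1 was, and without A10i replicate 2, 4 were. Between A10i and DMSO, Kdr was at 0.40 (SE 0.13, unadjusted p = 0.00957, adjusted p = 0.116) and Nrp1 at 0.32 (SE 0.13, unadjusted p = 0.0263, adjusted p = 0.161), and Vegfa at -0.47 (adjusted p = 0.124). The median over all genes was then -0.16, so Kdr and Nrp1 stayed above it and Vegfa below it, and edgeR called 0 of the 10 and 0 of all genes, with 23.5% at an unadjusted p under 0.05.

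**Figure D3:**
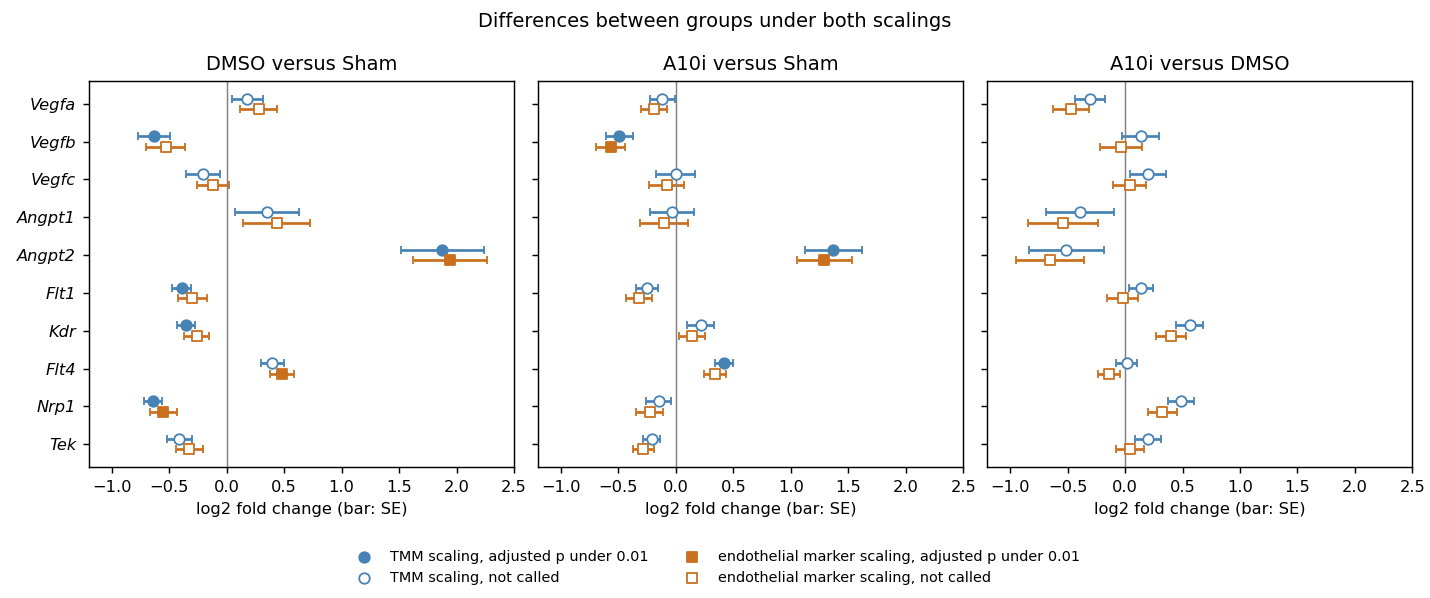
Log2 fold change with its SE (x axis) for each of the 10 genes in the 3 comparisons, for TMM scaling (circles) and scaling to 18 endothelial markers (squares), filled where the adjusted p was under 0.01. Angpt2 is filled in both scalings against Sham, Nrp1 in both for DMSO against Sham, and no symbol is filled for A10i against DMSO.

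Because both angiopoietins bind TIE2, their ratio was taken within each mouse, per kilobase of exon. There were 0.0734, 0.0628 and 0.0655 Angpt2 reads per Angpt1 read in the Sham hearts, 0.147, 0.238, 0.102 and 0.37 in the DMSO hearts, and 0.358, 0.131, 0.185 and 0.112 in the A10i hearts. Every infarcted heart was above every Sham heart, and the 2 infarcted groups overlapped over most of their range. The mean log2 ratio was higher than in Sham by 1.51 in DMSO and by 1.40 in A10i mice, each with an exact two-sided permutation p of 0.0571 and an adjusted p of 0.0857 over the 3 comparisons. The two-sided p was the smaller tail doubled, and 0.0571 is the smallest that this form of the test allows with 4 against 3 mice. Between A10i and DMSO the difference was -0.11 (exact permutation p = 0.83, where the smallest possible is 0.0286), and it changed sign with the mouse left out, to 0.21 without DMSO replicate 4.

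**Figure D4:**
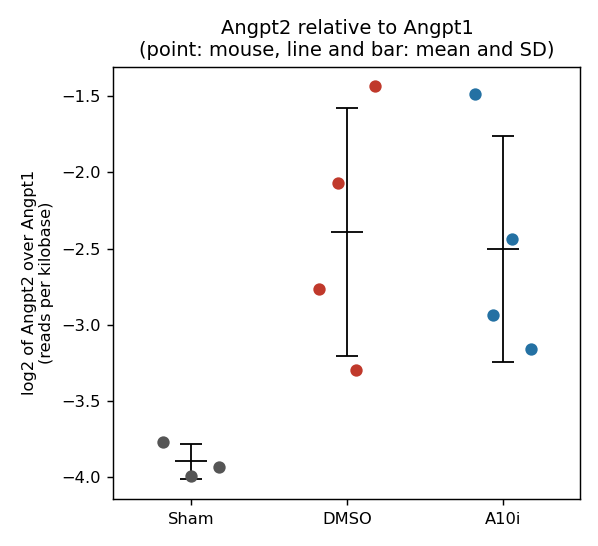
Log2 ratio of Angpt2 to Angpt1 reads per kilobase (y axis) in each Sham, DMSO and A10i mouse, with the group mean and SD. All 8 infarcted hearts lie above the 3 Sham hearts, which lie between -3.99 and -3.77.

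Other ligands and receptors of the pathway followed no single direction. Pgf, encoding the VEGFR1 ligand placental growth factor, had 134, 145 and 118.5 normalised counts in Sham, 593, 353, 395 and 843 in DMSO and 325, 443, 173 and 254 in A10i hearts. It rose 4.09-fold in DMSO mice (log2 fold change 2.03, SE 0.31, adjusted p = 0.00126), was at 1.18 (adjusted p = 0.0123) in A10i against Sham and at -0.86 (adjusted p = 0.282) in A10i against DMSO. Vegfd, the second VEGFR3 ligand, rose against Sham in DMSO (log2 fold change 1.09, SE 0.24, adjusted p = 0.00608) and in A10i mice (log2 fold change 1.30, SE 0.17, adjusted p = 0.000523). Angpt4, the third angiopoietin, was scarce, with at most 5.54 normalised counts in Sham, and rose in A10i mice (log2 fold change 2.10, SE 0.47, adjusted p = 0.00604), whereas DMSO mice were at 1.32 (adjusted p = 0.0574).

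Tie1, the orphan partner of TIE2, fell in both groups, from 3228, 3238 and 3412 normalised counts in Sham to 2145, 2474, 2217 and 2261 in DMSO (log2 fold change -0.54, SE 0.078, adjusted p = 0.000865) and 2555, 2643, 2699 and 2665 in A10i hearts (log2 fold change -0.32, SE 0.060, adjusted p = 0.00291). All A10i hearts were above all DMSO hearts in Tie1 (log2 fold change 0.22, unadjusted p = 0.0135, adjusted p = 0.227). Ptprb, encoding the phosphatase VE-PTP that dampens TIE2, fell in DMSO mice (log2 fold change -0.44, SE 0.093, adjusted p = 0.00516) and was at -0.23 (adjusted p = 0.0262) in A10i mice. Nrp2, the neuropilin of lymphatic and venous endothelium, was at -0.0026 (adjusted p = 0.99) and 0.31 (adjusted p = 0.185) against Sham. Of these 6 genes, 2 rose and 2 fell in DMSO, and 2 rose and 1 fell in A10i mice, where 22.6% of all genes were called in each comparison. Scaled to endothelial markers, 2 rose and 1 fell in DMSO and likewise in A10i mice, where 21.3% and 23.3% of all genes were called. In A10i against DMSO 0 of these 6 passed by edgeR, DESeq2 or limma-voom, with 1 higher and 1 lower at an unadjusted p under 0.05, beside 14% of all genes.

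Neuropilins also bind class 3 semaphorins, which signal through plexins. Of 12 such genes, 2 rose and 1 fell between DMSO and Sham, and 3 rose and 1 fell between A10i and Sham. Over all genes 12.9% rose and 9.72% fell in DMSO, and 13.5% and 9.07% in A10i mice, so these counts lie near the share of all genes. The repulsive ligand genes Sema3a and Sema3f rose in DMSO by 1.71 (adjusted p = 0.00131) and 1.44 (adjusted p = 5.6e-05) on the log2 scale, and in A10i mice by 1.54 (adjusted p = 0.00378) and 1.07 (adjusted p = 0.000227). Sema3c fell in DMSO, at -0.52 (adjusted p = 0.00405), and the receptor gene Plxna2 in A10i mice, at -0.32 (adjusted p = 0.00345). In A10i against DMSO 0 of the 12 passed by edgeR, DESeq2 or limma-voom, with 2 higher and 2 lower at an unadjusted p under 0.05, beside 14% of all genes. The smallest p-values were those of Sema3d (0.56, unadjusted p = 0.00426) and Sema3c (0.32, unadjusted p = 0.00668), both higher in A10i mice. The median log2 fold change of the 12 was 0.095 in DMSO and 0.046 in A10i mice against Sham, beside 0.0024 and -0.0054 over all genes, and when scaled to endothelial markers the A10i median was -0.028, beside -0.082 over all genes.

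Of 31 genes of intracellular signalling below the VEGF and TIE2 receptors, 29 could be tested, Sh2d2a and Grb7 being too low. In DMSO against Sham 10 rose and 2 fell, with a median of 0.077, and in A10i against Sham 6 rose and 3 fell, with a median of 0.054, which was -0.021, beside -0.082 over all genes, when scaled to endothelial markers. With TMM, 12.9% of all genes rose and 9.72% fell in DMSO, and 13.5% and 9.07% in A10i mice. Sphk1, which makes sphingosine-1-phosphate, rose most, by 3.45 (adjusted p = 0.000142) on the log2 scale in DMSO and 2.15 (adjusted p = 0.00248) in A10i mice, followed by the TIE2-binding adaptor gene Dok2 at 1.54 (adjusted p = 0.000439) and 0.98 (adjusted p = 0.00674). Which cells of the bulk tissue, endothelial or other, held these transcripts was not tested. Pik3r1, the regulatory subunit of PI3-kinase, and Plcg1, the phospholipase that VEGFR2 recruits, fell in DMSO, at -1.02 (adjusted p = 0.000644) and -0.68 (adjusted p = 0.000386), and in A10i mice, at -0.70 (adjusted p = 0.00177) and -0.57 (adjusted p = 0.000446). For A10i against DMSO 0 of 29 passed by edgeR or limma-voom, with 1 higher and 7 lower at an unadjusted p under 0.05, and the VEGFR2 adaptor gene Shb (-0.82, unadjusted p = 0.000529) and Sphk1 (-1.31, unadjusted p = 0.00147) had the smallest p-values, both without overlap between the groups. DESeq2 called these 2, both lower in A10i mice, and 231 of all genes. Over all genes 14% had an unadjusted p under 0.05 by edgeR, and 8.13% did not overlap between the groups.

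Of 14 genes of tip cells and of the response to VEGF, 1 rose and 1 fell in DMSO against Sham, and 1 rose in A10i against Sham. The share called was below the 22.6% of all genes in each comparison, and whether it differed from that share was not tested. The median log2 fold change of the 14 was 0.42 in DMSO and 0.33 in A10i mice, beside 0.0024 and -0.0054 over all genes. In each comparison 10 of the 14 were higher and 4 lower. The called rise was that of Plaur, the urokinase receptor, which myeloid cells also express, at 3.83 (adjusted p = 8.87e-05) and 2.85 (adjusted p = 0.000153) on the log2 scale. The called fall in DMSO was that of the apelin receptor gene Aplnr, at -1.41 (adjusted p = 0.00864). Scaled to endothelial markers, 3 of the 14 rose and 0 fell in DMSO, where 15.8% of all genes rose and 5.53% fell. A joint fit of all 11 libraries also had 3 rising and 0 falling in DMSO, beside 4451 of all genes called. DESeq2 called 3 higher and 1 lower in DMSO and 4 higher in A10i mice, against Sham, beside 5092 and 4877 of all genes. The tip cell genes Dll4 and Esm1 were at 0.16 (adjusted p = 0.144) and 0.45 (adjusted p = 0.555) in DMSO mice. Against Sham, A10i mice were at 0.014 (adjusted p = 0.899) for Dll4 and at 0.97 (adjusted p = 0.0294) for Esm1. Plaur and Aplnr were also first by p between A10i and DMSO, Plaur lower (-0.98, unadjusted p = 0.0038) and Aplnr higher (1.11, unadjusted p = 0.0161) in A10i mice. By edgeR, DESeq2 and limma-voom 0 of the 14 passed, with 1 higher and 2 lower at an unadjusted p under 0.05, beside 14% of all genes.

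Of 20 hypoxia-induced genes, of which Adm also stands among the tip cell genes, 19 could be tested, since the symbol Aldoa matched more than 1 identifier. Between DMSO and Sham 4 rose and 1 fell, and between A10i and Sham 6 rose and 1 fell, with medians of 0.41 and 0.23 on the log2 scale (0.49 and 0.15 when scaled to endothelial markers, beside 0.090 and -0.082 over all genes, with 8 and 5 rising). Over all genes 12.9% rose and 9.72% fell in DMSO, and 13.5% and 9.07% in A10i mice. When scaled to endothelial markers, 15.8% and 11.3% of all genes rose. DESeq2 called 8 higher and 1 lower in DMSO and 8 higher and 2 lower in A10i mice, beside 5092 and 4877 of all genes. The carbonic anhydrase gene Car9 rose most, by 3.45 (adjusted p = 0.00907) in DMSO and 3.06 (adjusted p = 0.000757) in A10i mice, followed by the glucose transporter gene Slc2a1 at 1.52 (adjusted p = 0.000554) and 0.81 (adjusted p = 0.000553). Car9 was scarce, with means of 4.05 normalised counts in Sham, 46.9 in DMSO and 35.1 in A10i hearts. In DMSO against Sham limma-voom did not call Car9. The oxygen sensor gene Egln1 fell, at -0.78 (adjusted p = 0.000585) and -0.44 (adjusted p = 0.00892). Vegfa, a hypoxia-induced gene itself, was at 0.18 and -0.12 and not called. With A10i set against DMSO 0 of 19 passed by edgeR or limma-voom, and DESeq2 called Gapdh alone, lower. At an unadjusted p under 0.05, 1 was higher and 3 were lower, beside 14% of all genes. Gapdh (-0.43, unadjusted p = 0.0011) and Slc2a1 (-0.71, unadjusted p = 0.00234) were lowest in p, both lower in A10i mice. Gapdh had means of only 542 normalised counts in DMSO and 401 in A10i hearts, beside 14138 and 14119 for Tpi1. Reads without a unique alignment were not counted, and how far the Gapdh count follows its transcript was not tested.

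**Figure D5:**
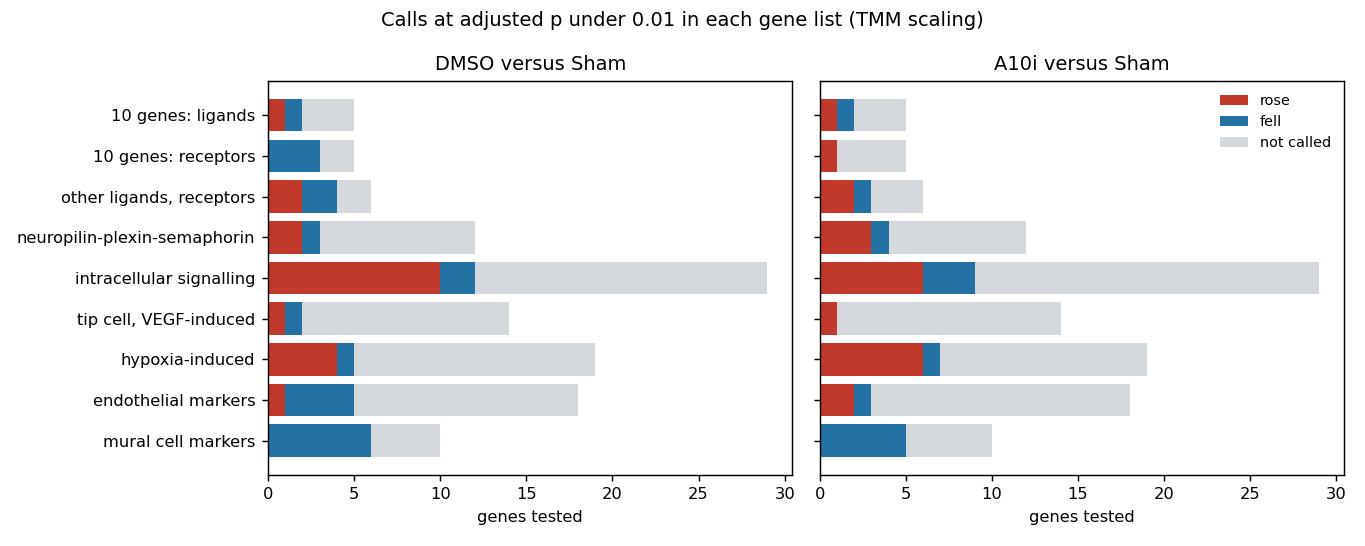
Number of genes tested (x axis) in each list that rose, fell or were not called at an adjusted p under 0.01, for DMSO against Sham and A10i against Sham, with TMM scaling. Rises outnumber falls among the signalling and hypoxia-induced genes, and the mural cell markers hold falls alone.

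Markers of other cell types moved with the same groups, where 12.9% of all genes rose and 9.72% fell in DMSO, and 13.5% and 9.07% in A10i mice. The heart samples held cardiomyocyte transcripts, whose 14 markers summed to between 115089 and 117934 CPM in Sham, 53093 and 79534 in DMSO and 66062 and 90708 in hearts of A10i mice, and 6 of 14 fell in DMSO and 5 in A10i mice. Mural cell markers, of cells that make Angpt1, summed to between 1575 and 1665 CPM in Sham, 792 and 1039 in DMSO and 950 and 1173 in hearts of A10i mice. Of the 10, 6 fell in DMSO, among them Abcc9 (-1.05) and Rgs5 (-0.95), and 5 fell in A10i mice. Rgs5 and Abcc9 were the most abundant of the list, at means of 18138 and 14577 normalised counts in Sham, and so weigh most in its sum. Which cells of the bulk tissue held the Abcc9 transcripts, mural cells or cardiomyocytes, was not tested. The other 4 were not called in DMSO, namely Pdgfrb (-0.15), Myh11 (-0.12), Cspg4 (0.075) and Ndufa4l2 (0.095). Lymphatic endothelial markers, the cells of Flt4, summed to between 115 and 139 CPM in Sham, 139 and 163 in DMSO and 136 and 208 in hearts of A10i mice, where Pdpn, which fibroblasts also express, rose in both (2.84 and 2.22) and Ccl21a in A10i mice (0.99). Pdpn went from a mean of 123 normalised counts in Sham to 879 in DMSO. The other 5 were not called in DMSO, with Prox1 (-0.35), Reln (-0.087) and Mmrn1 (-0.12) lower and Lyve1 (0.12) and Ccl21a (0.36) higher. A higher sum in DMSO was thus not shared by the list. Prox1 and Lyve1 were the most abundant of these lymphatic markers, at means of 1683 and 933 normalised counts in Sham. Which cells held their transcripts, lymphatic or other, was not tested.

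Fibroblast markers summed to between 1202 and 1285 CPM in Sham, 1959 and 6454 in DMSO and 4887 and 8986 in hearts of A10i mice, with 4 and 6 of 10 rising against Sham. Macrophage and monocyte markers summed to between 253 and 274, 373 and 603, and 510 and 846 CPM, with 7 and 9 of 11 rising. Neutrophil markers summed to between 2.84 and 3.94 CPM in Sham, with Ly6g at 0 in all 3 mice, 90.04 and 196 in DMSO and 26.1 and 66.4 in A10i mice, with 7 of 7 tested rising in both. Between A10i and DMSO 0 markers of any of these lists passed by edgeR or limma-voom. At an unadjusted p under 0.05, beside 14% of all genes, 2 of 10 mural cell, 1 of 14 cardiomyocyte, 2 of 10 fibroblast and 5 of 11 macrophage markers were higher. Of 6 lymphatic markers 2 were higher and 1 lower, and 7 of 7 neutrophil markers tested were lower, of which DESeq2 called 4. S100a8 was at -2.00 and S100a9 at -1.95 (adjusted p = 0.0689 for both). The 18 endothelial markers had a median of 0.13, with 3 higher at an unadjusted p under 0.05 and Clec14a first by p at 0.63 (unadjusted p = 0.000678, adjusted p = 0.094), which DESeq2 called. The part of these shifts in the differences of the 10 genes was not tested beyond the endothelial scaling.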

How the data were processed

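Per the labels and the study's methods, poly(A) RNA of 11 mouse hearts was made into NEBNext Ultra II Directional libraries and sequenced in pairs on a NovaSeq, and reads were demultiplexed with bcl2fastq 2.20.0. The authors aligned the reads with GSNAP (2020-12-16) to mm10 and used featureCounts 2.0.1 to count the reads with a unique alignment for each gene of Ensembl, and they deposited these raw counts in 1 table of 55513 identifiers. The strand setting is not given in the sources used here. Every count column matched 1 sample by name (0 columns were left unmapped). The files name genes by identifier, and 55154 identifiers received a symbol from a mouse annotation. Replicates of each group were compared by a chi-square test of their counts, and all 15 pairs differed beyond sampling noise (4.04 to 60.8 per degree of freedom).

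From these counts, edgeR 4.0.16 in R 4.3.3 filtered low genes (filterByExpr), scaled libraries by TMM and ran the robust quasi-likelihood test for each pair of groups on their own libraries, with Benjamini-Hochberg adjustment over all genes tested and a threshold of 0.01. The test was checked on simulated counts with known changes. SE was taken as the log2 fold change divided by the square root of the F statistic. In a second scaling the mean log2 CPM (prior count 2) of 18 endothelial markers was made equal in every library. RPKM used exon lengths of the Ensembl models. The Angpt2 to Angpt1 ratio was compared by an exact two-sided permutation test over mice, with the smaller tail doubled. Alternatives were DESeq2 1.42.0 (without the weighting of hypotheses the study used), limma 3.58.1 (voom), other scalings and filters, a joint fit, a threshold of 0.05 and omission of each library.

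The members and gene lists were chosen with earlier results of these data known. Named were all 10 members, the 6 other ligands and receptors of the pathway, up to 2 genes with the largest rise and 2 with the largest fall past the threshold in each other list (for A10i against DMSO the 2 with the smallest p), Pecam1, Cdh5, Erg and Adam10. Marker lists are given mainly by counts and sums. Dll4, Esm1 and Ly6g were named outside this rule, after their values were seen. Promoter windows came from RefSeq and were searched for fixed letters on both strands.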

Additional observations from a re-analysis of the deposited data

Results flagged for a closer look

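Flt4 in DMSO replicate 4 stood apart from its group, with a normalised read count of 961 where the other 3 DMSO hearts lay between 777 and 804. The gap to the nearest of them was 0.857 of the range of the 4 mice, above Dixon's critical value for 4 samples. Of the 10 genes and the angiopoietin ratio, 22 sets of 4 mice were examined in this way, and chance marks about 1 in 20.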

How the results depend on the processing

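No paired analysis was possible because the labels give the groups no shared replicate numbers. The 5 genes called between DMSO and Sham and the 3 called between A10i and Sham kept their direction in every alternative and omission run with TMM, but 17 of 35 and 10 of 21 omissions ended a call, where fewer mice are tested. Other settings ended 6 of 35 and 3 of 21 calls. Members called between DMSO and Sham were 3 in place of 5 with library size alone and with no filter on low counts, 7 with DESeq2 and at a threshold of 0.05, 6 in a joint fit, and 1 to 5 with a library left out. Between A10i and Sham a joint fit called 1 in place of 3, library size alone 2, a threshold of 0.05 4, and omissions 0 to 3. Between A10i and DMSO DESeq2 called 2 in place of 0. Scaled to endothelial markers, omissions called 1 to 4 for DMSO and 0 to 4 for A10i against Sham. With only Pecam1, Cdh5 and Erg as the scale, Nrp1 in DMSO and Vegfb in A10i mice lost their calls (adjusted p = 0.0386 and 0.0148) and Flt4 gained one in A10i mice (adjusted p = 0.00232).

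Small differences changed sign. With library size alone Vegfc was at 0.0061 in DMSO against Sham, Vegfa, Vegfc, Angpt1 and Nrp1 at 0.065, 0.19, 0.15 and 0.037 in A10i against Sham, and Flt4 at -0.0052 in A10i against DMSO. With a library left out, Angpt1 ranged from -0.0058 to 0.52 in DMSO against Sham. In A10i against Sham Vegfc ranged from -0.14 to 0.11 and Angpt1 from -0.17 to 0.095, and, scaled to endothelial markers, from -0.21 to 0.017 and from -0.27 to 0.030. In A10i against DMSO Flt4 ranged from -0.017 to 0.091, and the scaled values of Vegfb from -0.17 to 0.10, of Vegfc from -0.089 to 0.11, of Flt1 from -0.13 to 0.069 and of Tek from -0.028 to 0.15. The difference in log2 ratio of Angpt2 to Angpt1 between A10i and DMSO ranged from -0.45 to 0.21.

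Over all genes, 3875 were called between DMSO and Sham, 6857 at a threshold of 0.05 and 1465 to 1552 without a Sham mouse, and 3840, 6674 and 1446 to 1653 between A10i and Sham. DESeq2 called 5092 and 4877 in these 2 comparisons, a joint fit 4451 and 2669, and library size alone 4076 and 4029. With endothelial scaling 3648 became 1785 to 1910 and 3956 became 1633 to 1765 without a Sham mouse. Between A10i and DMSO 0 became 231 with DESeq2, 11 in a joint fit, 15 at 0.05 and 0 to 1 with a mouse left out, and with endothelial scaling 1 with Pecam1, Cdh5 and Erg and 0 to 5 with a mouse left out. Apart from the smaller samples, the cause was not tested. At 3 or 4 mice a group, a p above the threshold does not show that a transcript was unchanged.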
